A study of Mus musculus with 135 samples.

Results

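The genes described here are 10 members of the circadian clock, Per2, Per3, Cry1, Cry2, Dbp, Nr1d1, Nr1d2, Clock, Npas2 and Ciart, chosen by symbol from the 55416 genes counted by RNA sequencing in cerebral cortex and hippocampus of sickle cell disease mice. The animals were adult male Townes mice, in which human haemoglobin genes replace the mouse ones: SS mice carry sickle haemoglobin and AA mice, the controls, carry normal human haemoglobin. Some mice went through repeat social defeat (RSD), in which a male aggressor was put into an established cage in daily late-afternoon sessions, and some drank minocycline, an antibiotic, in their water. The time of day at which each brain was collected is not given in the sources used here. The cortex was measured in 12 AA, 3 AA + RSD, 18 AA + RSD + minocycline, 1 AA + minocycline, 8 SS, 6 SS + RSD, 14 SS + RSD + minocycline and 4 SS + minocycline mice. The hippocampus was measured in 11 AA and 7 SS mice, with the other arms at the same numbers, and 64 mice gave both regions.

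All 134 libraries with a group were compared before use. Libraries of an AA + RSD + minocycline mouse and an SS + minocycline mouse held identical counts in each region, so these 4 libraries were left out and 130 were used. Between 16295042 and 107713193 reads fell on genes in a cortex library and between 12869149 and 68731008 in a hippocampus library. The defining markers of each region were present in the libraries of that region. A set of 5 cortex markers (Fezf2, Tbr1, Cux2, Rspo1 and Lamp5) summed to 211 to 761 CPM in 65 cortex libraries. In 63 hippocampus libraries the same set summed to 122 to 386 CPM. CPM are counts scaled by the reads on genes of a library after adjustment by its TMM factor. Libraries therefore need not sum to the same total of CPM. Mouse 9674 of the AA + RSD arm went against its labels: the library labelled cortex had 155 CPM of cortex markers and 764 CPM of 6 hippocampus markers (Prox1, C1ql2, Fibcd1, Zbtb20, Dsp and Wfs1), and the library labelled hippocampus had 626 and 216 CPM. It was kept under its labels, and its part in a result is given beside that result where the AA + RSD arm or the regions of a mouse are compared. Striatal markers reached 1018 CPM in an SS + RSD cortex library, where the median of that arm was 169.9 CPM. The mouse numbers fall into 3 series, called here A, B and C, and the series follow the arms: every RSD mouse without minocycline is in A, every RSD + minocycline mouse is in B or C, and controls are in A and B.

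The mammalian clock is a transcriptional loop. CLOCK, or its relative NPAS2, pairs with BMAL1 and binds E-box sequences in promoters, among them those of the Per and Cry genes and of Ciart. PER and CRY proteins then repress CLOCK-BMAL1 and so their own transcription, and CIART (CHRONO) is a further repressor of the same complex. NR1D1 and NR1D2 (REV-ERB alpha and beta) repress Bmal1 and other genes through ROR elements, and DBP activates genes through D-boxes. In mice under a light and dark cycle, messenger RNA of most of these genes, Dbp, the Per genes and Nr1d1 above all, rises and falls once a day in most tissues.

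Promoters are shown for the 3 members on which the comparisons below turn most and for which letters of clock elements were found. The sequences are RefSeq reference sequence of build GRCm38.p6, 250 bases before the start of the gene, written 5′ to 3′ on the gene's strand, with matches in capitals. The letters searched on both strands were CACGTG (E-box), CACGTT (a variant called E-prime box), TTATGTAA (D-box) and TAGGTCA (ROR element). A promoter was in the table for 9 of the 10 members, 11 promoters in all, and 5 of these held a match. Per2 had no entry.
Per3, chr4:151044666-151044915, minus strand, capitals mark D-boxes: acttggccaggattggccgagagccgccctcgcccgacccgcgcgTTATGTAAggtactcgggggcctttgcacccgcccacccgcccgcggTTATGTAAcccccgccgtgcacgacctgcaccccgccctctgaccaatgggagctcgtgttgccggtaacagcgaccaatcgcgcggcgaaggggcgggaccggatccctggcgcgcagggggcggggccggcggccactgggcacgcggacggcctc
Cry1, chr10:85185055-85185304, minus strand, capitals mark an E-prime box on the reverse strand and then an E-box: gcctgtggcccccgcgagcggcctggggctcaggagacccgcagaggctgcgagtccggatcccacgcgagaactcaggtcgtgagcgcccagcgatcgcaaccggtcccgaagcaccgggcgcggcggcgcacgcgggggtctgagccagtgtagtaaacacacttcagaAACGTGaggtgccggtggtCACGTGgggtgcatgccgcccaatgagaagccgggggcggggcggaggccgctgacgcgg
Ciart, chr3:95882229-95882478, minus strand, capitals mark E-boxes: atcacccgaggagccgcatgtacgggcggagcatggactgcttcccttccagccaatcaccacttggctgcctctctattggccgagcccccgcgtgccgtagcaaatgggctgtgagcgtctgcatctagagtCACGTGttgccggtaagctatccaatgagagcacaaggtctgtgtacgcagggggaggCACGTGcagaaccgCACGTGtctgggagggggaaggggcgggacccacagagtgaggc

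The Ciart promoter held 3 E-boxes, at 116, 58 and 44 bases before the start, where 6.02% of all 32851 promoters held at least 1. The Cry1 promoter held an E-box 60 bases and an E-prime box 79 bases before the start. The Per3 promoter held 2 D-boxes, at 205 and 158 bases before the start, an element found in 0.819% of all promoters. Nr1d1 and Cry2 each held an E-prime box (28 and 166 bases before the start), found in 3.85% of all promoters, and no member held the ROR element, found in 2.23%. A match describes the letters in this window and is no measurement of binding.

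In build GRCm39 (GENCODE vM39), Per2 lies at chr1:91343700-91387069, Per3 at chr4:151081373-151129140, Cry1 at chr10:84967560-85021252 and Ciart at chr3:95785815-95789991, all on the minus strand, with Dbp at chr7:45354512-45359627 and Npas2 at chr1:39232705-39402323 on the plus strand. All 10 members are protein-coding, and counts cover their exons. Levels between genes were compared per kilobase of exon (RPKM, CPM divided by the exonic length). Neighbours in the order were said to overlap where their mean ± SD did. In the cortex of the 12 AA control mice, Nr1d1 was highest at 39.2 ± 3.57 RPKM (SD), and its lowest library lay above the highest library of any other member. Cry2 (20.4 ± 1.62) and Dbp (18.9 ± 3.20) followed and overlapped each other. Nr1d2 followed at 12.7 ± 1.39 RPKM and overlapped neither neighbour by this measure, although its lowest library (10.3 RPKM) was under the highest of Npas2 (11.2 RPKM). Npas2 (9.81 ± 1.04), Ciart (7.24 ± 1.58), Per2 (7.12 ± 1.90), Per3 (6.51 ± 2.37) and Clock (5.56 ± 0.64) each overlapped the next, so this part of the order is not resolved. Cry1 was lowest at 3.42 ± 0.38 RPKM and did not overlap Clock.

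In the hippocampus of the 11 AA controls the order was Nr1d1 (28.6 ± 2.16 RPKM), Cry2 (18.5 ± 1.58), Dbp (15.6 ± 2.07), Nr1d2 (9.37 ± 1.44), Per2 (6.39 ± 1.80), Per3 (5.66 ± 1.85), Clock (5.05 ± 0.59), Npas2 (5.03 ± 0.97), Ciart (4.49 ± 0.68) and Cry1 (2.28 ± 0.36). From Nr1d2 down to Ciart each member overlapped the next, as did Cry2 and Dbp, and Ciart did not overlap Cry1. Npas2 stood at rank 5 in cortex and rank 8 in hippocampus. Nr1d1 shares 52.3% of its exonic bases with Thra on the other strand, and Dbp 15.5% with Sphk2, Npas2 12.7% with Gm53549, Clock 11.9% with Tmem165 and Ciart 9.59% with C920021L13Rik. The libraries were directional, but the strand setting of the count is not given in the sources used here, so the levels of these genes are uncertain to that extent.

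Per3 and Per2, the period genes of the repressor arm, had the widest spread between mice by the SD as a share of the mean, at 38.0% and 33.5% in cortex and 34.7% and 29.4% in hippocampus, where the next member, Ciart, had 25.7% and 22.2%. In cortex Per3 ranged from 23.9 to 103 CPM with a median of 72.5, and in hippocampus from 26.8 to 87.8 CPM with a median of 58.3. Per2 ranged from 19.2 to 80.6 CPM (median 41.02) in cortex and from 21.9 to 63.5 CPM (median 42.4) in hippocampus. Cry2, the more abundant cryptochrome, spread least, from 110.2 to 202 CPM in cortex and from 127 to 188 CPM in hippocampus, a ratio of highest to lowest of 1.84 and 1.48. The same ratio was 4.31 and 3.28 for Per3, and 4.49 for Clock in cortex, where single libraries lay at 41.3 and 185 CPM.

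For the other 7 members the arm means are given here as a range over the 7 arms with at least 3 mice. Cry1 had its lowest mean in cortex in AA + RSD mice (14.5 ± 2.75 CPM) and its highest in SS + minocycline mice (21.02 ± 1.95), and in hippocampus 11.4 ± 1.77 in AA and 14.3 ± 0.388 CPM in SS + minocycline mice. Cry2 ran in cortex from 161 ± 4.56 CPM (AA + RSD) to 185 ± 12.3 (SS + minocycline) and in hippocampus from 147 ± 14.3 (SS + RSD) to 169 ± 10.5 CPM (SS + minocycline). Dbp ran from 62.9 ± 1.73 (AA + RSD) to 93.8 ± 35.6 CPM (SS + minocycline) in cortex and from 54.02 ± 7.20 (AA) to 68.5 ± 11.9 CPM (SS + minocycline) in hippocampus. For these 3 genes the highest mean of each region was that of the SS + minocycline arm of 4 mice, and edgeR called none of them against SS mice.

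Nr1d1 ran in cortex from 109.9 ± 30.9 CPM (AA + RSD) to 137 ± 17.4 (SS + minocycline) and in hippocampus from 87.0 ± 7.62 (SS) to 106 ± 14.4 CPM (AA + RSD). Nr1d2 ran from 106 ± 7.47 (SS + RSD) to 121 ± 41.9 CPM (SS + minocycline) and from 80.8 ± 11.6 (AA + RSD + minocycline) to 88.8 ± 21.02 CPM (SS + RSD + minocycline). Clock, the activator, was lowest in cortex of SS mice, at 85.5 ± 10.2 CPM, and highest in that of AA mice, at 95.9 ± 11.02 CPM, with 77.3 ± 9.95 and 87.1 ± 10.2 CPM in hippocampus of the same arms. Npas2 ran in cortex from 42.8 ± 4.05 (SS + minocycline) to 53.7 ± 5.70 CPM (AA) and in hippocampus from 25.2 ± 7.43 (SS + RSD) to 35.1 ± 11.7 CPM (AA + RSD, with mouse 9674). Libraries of the lowest and highest arm overlapped for all but Cry1 and Cry2 in cortex, where the lowest arm was AA + RSD, with mouse 9674 among its 3 mice. The 2 other AA + RSD mice had 14.02 and 17.5 CPM of Cry1, 163 and 164 CPM of Cry2 and 123 and 132 CPM of Nr1d1 in cortex, and 91.1 and 107 CPM of Nr1d1 and 25.8 and 31.1 CPM of Npas2 in hippocampus.

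**Figure D1:**
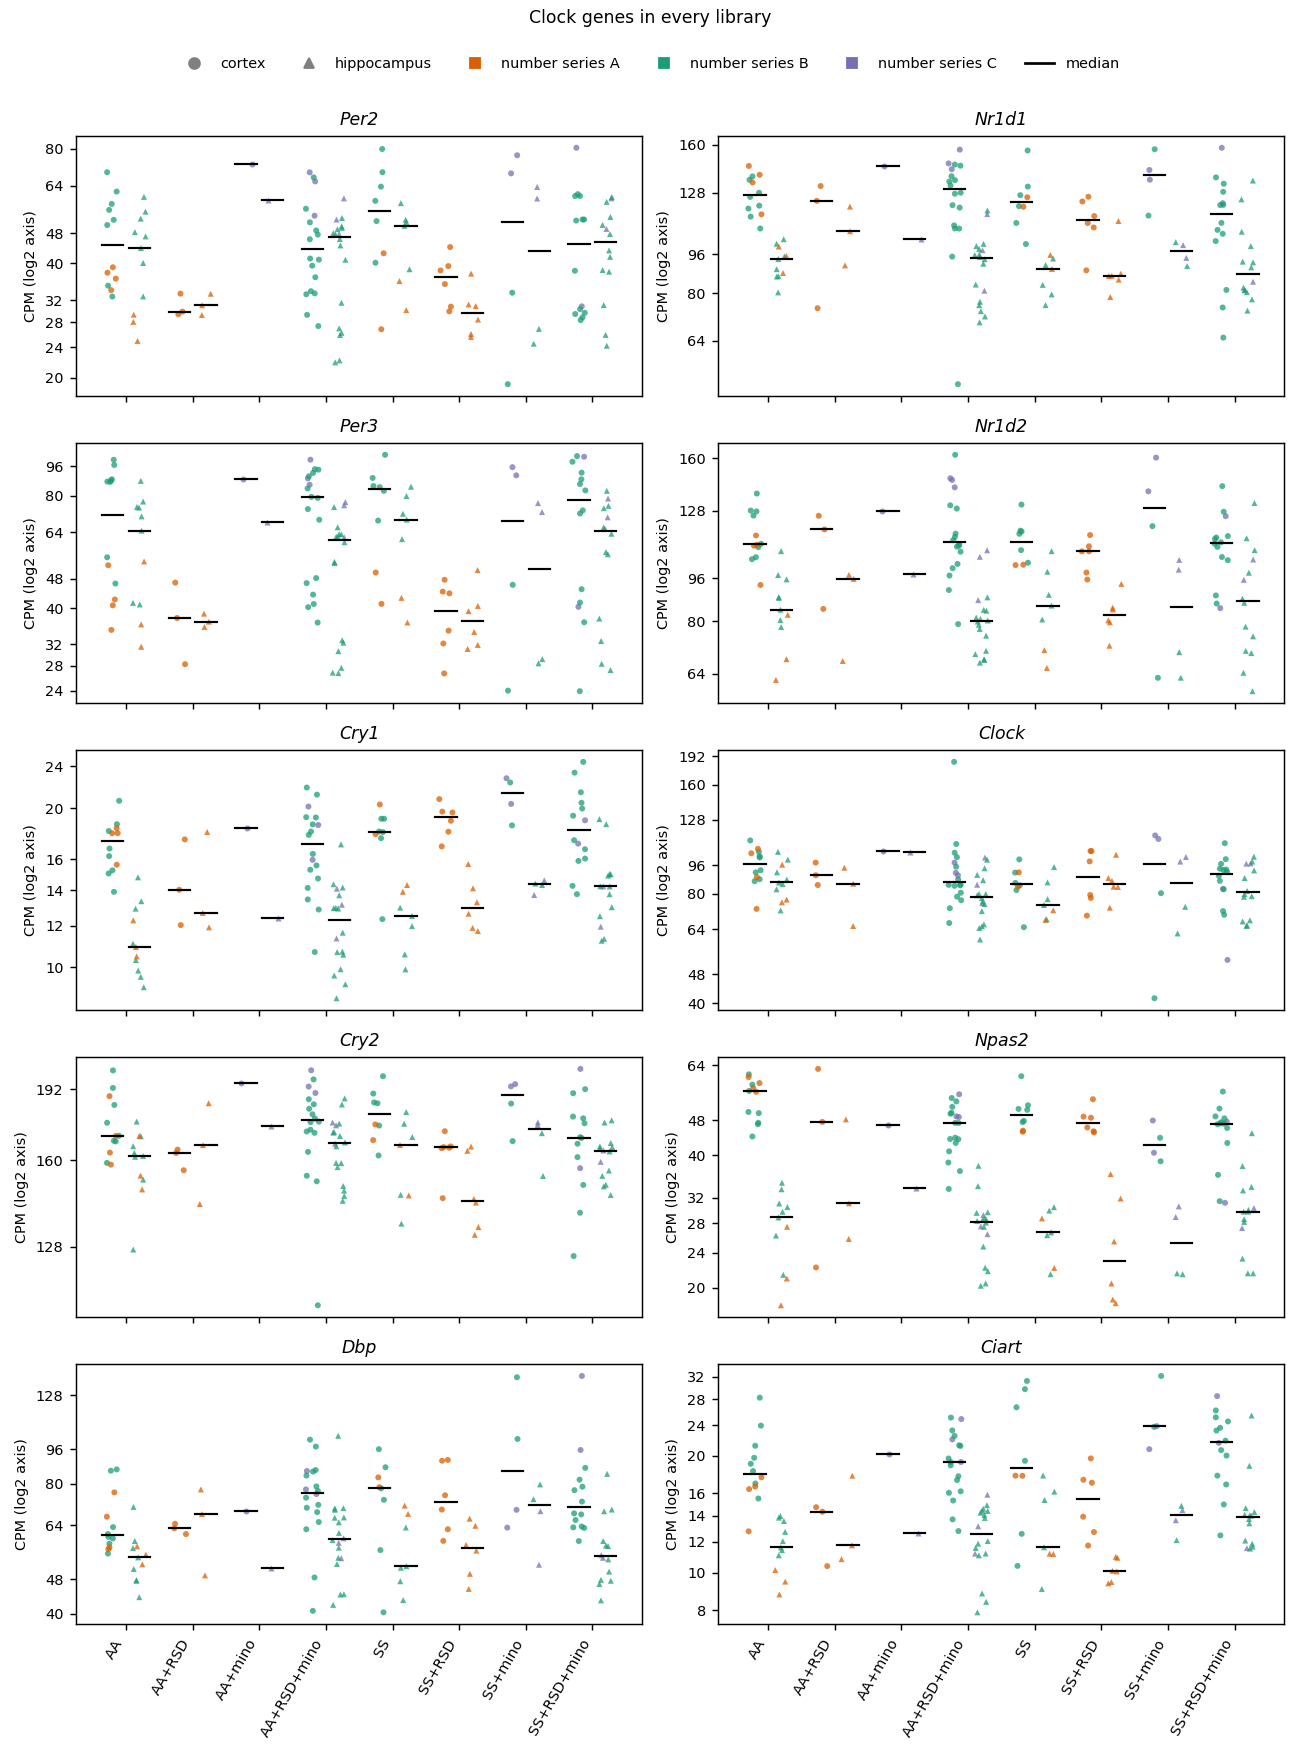
CPM (log2 axis) of each member in every library by arm (mino, minocycline), with circles for cortex, triangles for hippocampus, colours for number series and a bar at the median. Per3 runs from 23.9 to 103 CPM in cortex, and the cortex libraries of RSD mice without minocycline lie at or under 47.7 CPM, whereas Cry2 stays between 110.2 and 202 CPM in cortex.

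In hippocampus 9 of the 10 members were lower than in cortex, whereas Per2 was at adjusted p = 0.124. These values are of the main fit, which had the arm as a term and did not pair the regions of a mouse. Npas2, the CLOCK relative abundant in forebrain, differed most. It had 47.6 ± 7.38 CPM in 66 cortex libraries (22.2 to 62.9, median 47.6) and 28.1 ± 5.85 CPM in 64 hippocampus libraries (18.3 to 48.3, median 28.6), a log2 fold change of −0.75 ± 0.05 (SE, fold 0.593, adjusted p = 9.04e-29, edgeR's quasi-likelihood test on all genes, as for the other adjusted p-values). Mouse 9674 held the lowest cortex and the highest hippocampus value, and without it Npas2 ran from 31.2 to 62.9 CPM and from 18.3 to 44.9 CPM, with a log2 fold change of −0.78. Ciart had 19.5 ± 5.01 CPM in cortex (10.4 to 32.2, median 19.3) and 12.7 ± 2.82 CPM in hippocampus (7.89 to 25.4, median 12.1), with a log2 fold change of −0.61 ± 0.06 (fold 0.654, adjusted p = 8.28e-19). Cry1 had 17.7 ± 2.83 and 12.8 ± 2.22 CPM, with a log2 fold change of −0.47 ± 0.04 (fold 0.723, adjusted p = 1.59e-21). For all 3 genes the regions overlapped across mice but differed within nearly every mouse.

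The 2 REV-ERB genes fell by similar amounts in hippocampus, Nr1d2 by 0.42 and Nr1d1 by 0.39 on the log2 scale. Dbp fell by 0.34, Per3 by 0.28 (adjusted p = 0.00714), Clock by 0.14 (adjusted p = 0.006) and Cry2 by 0.10 (adjusted p = 0.000568). The median of the 10 members was −0.36, beside 0.03 over all 24165 genes tested, of which 52.5% were called in either direction. Per2 was at −0.14 ± 0.08. With the mouse as a replicate block, which pairs the 2 regions of an animal, all 10 members were called. Per2 was then at −0.13 ± 0.04 (adjusted p = 0.0014) and Per3 at −0.27 ± 0.04. Within number series A alone, without the block, Per3 was at −0.06 (adjusted p = 0.709), Clock at −0.16 (adjusted p = 0.152) and Cry2 at −0.11 (adjusted p = 0.0606). These calls were lost, whereas Npas2 was at −0.89, Ciart at −0.50 and Cry1 at −0.43. Per2 was called in series A, at −0.22 (adjusted p = 0.0386), and not in series B, at −0.11 (adjusted p = 0.310).

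Counted by mouse, Npas2 and Cry1 were lower in hippocampus in 63 of 64 animals, Ciart in 61, Nr1d1 and Nr1d2 in 57, Dbp in 54, Per3 in 53, Cry2 in 50, Per2 in 47 and Clock in 40. The exception for Npas2 and for Cry1 was mouse 9674, whose labels go against its region markers. Its log2 difference, hippocampus minus cortex, was 1.12 for Npas2, where the other 63 mice had −1.72 to −0.19, and 0.58 for Cry1, where the others had −0.83 to −0.02. Clock genes beyond the 10 were taken from a list of 21 other clock genes, of which 16 were called between the regions. Lower in hippocampus were 13, among them Rora (−1.07) and Rorb (−0.93), which activate through ROR elements, Hlf (−0.82), a relative of DBP, and Timeless (−0.59). Higher were 3, Nampt (0.31), Fbxw11 (0.24) and Csnk1d (0.18). These are bulk samples, in which fewer cells of a type and less RNA per cell cannot be told apart.

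Whether the regional difference itself varied with RSD or minocycline was asked with interaction terms. None of the 10 members was called by edgeR for region by RSD in SS mice, with 0 at an unadjusted p under 0.05 and 0 by DESeq2, and 0% of all genes were called. The members' estimates lay between −0.05 and 0.22 on the log2 scale. For region by minocycline in SS + RSD mice edgeR again called 0 members, with 0 at an unadjusted p under 0.05, 0 by DESeq2 and 0% of all genes, and the estimates lay between −0.30 and 0.31.

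**Figure D2:**
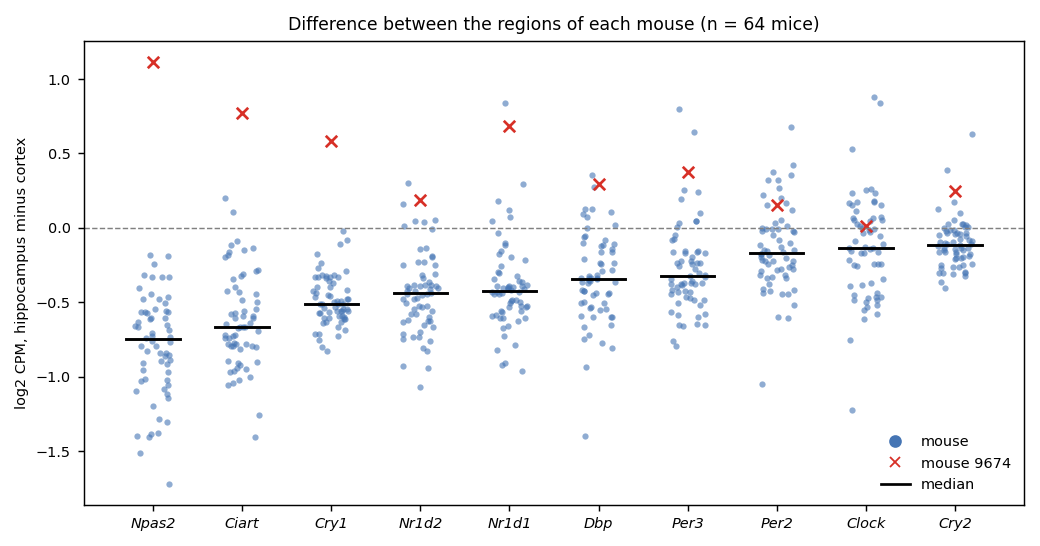
Difference in log2 CPM, hippocampus minus cortex, within each of 64 mice for the 10 members, with 1 point a mouse, a bar at the median and a cross for mouse 9674. Npas2 is under 0 in 63 mice and Cry1 in 63, and the cross lies above 0, at 1.12 and 0.58.

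In SS mice, no member passed the test for RSD in either region, and Per3 came closest. In cortex Per3 had 26.7, 32.2, 34.8, 43.8, 44.3 and 47.7 CPM in the 6 SS + RSD mice, and 41.1 to 103 CPM with a median of 83.5 in the 8 SS mice. In hippocampus it had 31.1, 31.9, 34.5, 39.3, 40.5 and 50.6 CPM in SS + RSD mice and 36.6 to 84.7 CPM (median 69.1) in 7 SS mice. The arms overlapped in both regions. The log2 fold changes were −0.97 ± 0.31 (adjusted p = 0.067) in cortex and −0.75 ± 0.28 (adjusted p = 0.114) in hippocampus. Per2 was at −0.56 ± 0.28 (adjusted p = 0.191) and −0.60 ± 0.22 (adjusted p = 0.123). Counted over members, 0 were called by edgeR in cortex (2 at an unadjusted p under 0.05, 1 by DESeq2), where 2.57% of all genes were called, and 0 in hippocampus (3 at an unadjusted p under 0.05, 0 by DESeq2), where 3.11% were called. With the fit limited to these 2 arms, Per2 and Per3 were called in each region. The share of all genes called in that fit is not given here, so the 2 calls cannot be set beside it. Within number series A, which holds 2 SS controls for the cortex, the log2 fold change of Per3 was −0.24 in cortex and −0.03 in hippocampus, and that of Per2 was 0.08 and −0.11.

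Ciart, the CLOCK-BMAL1 repressor, was the only member called in any of the 24 comparisons of arms. In hippocampus it had 9.38, 9.45, 10.1, 10.1, 10.9 and 10.98 CPM in SS + RSD mice and 11.5 to 25.4 CPM (median 13.9) in the 14 SS + RSD + minocycline mice. Every minocycline library lay above every SS + RSD library. The 7 SS control mice had 9.07 to 17.8 CPM (median 11.6) and overlapped both arms. The log2 fold change of SS + RSD + minocycline against SS + RSD was 0.51 ± 0.15 (fold 1.42, adjusted p = 0.039), and 5.96% of all genes were called in this comparison. An unadjusted p under 0.05 was seen for 4 members, and DESeq2 called 2, Ciart and Per2.

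The Ciart call was not stable. Without any 1 of the SS + RSD mice 5354, 5391, 9615, 9616 and 9621 its adjusted p was over 0.05, at log2 fold changes of 0.49 to 0.53 over the 6 omissions. With number series as a term it was at 0.18 (adjusted p = 0.828). The minocycline mice are of other series than the RSD mice. Summed markers of other cell types moved with the arms in hippocampus: 3 microglial genes had a median of 255 CPM (239 to 318) in SS + RSD mice and 190.1 CPM (152 to 258) with minocycline, and 3 endothelial genes had 189.6 CPM (183 to 204) and 148 CPM (96.9 to 186). Markers of the regions differed as well. The cortex markers had a median of 151 CPM (126 to 185) in SS + RSD hippocampus and 158 CPM (129 to 386) with minocycline. The hippocampus markers had 853 CPM (639 to 977) and 762 CPM (505 to 859). The part of these cell type and region markers in the Ciart difference was not tested.

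In cortex the same comparison called 0 members by edgeR, with 2 at an unadjusted p under 0.05, 1 by DESeq2 and 8.85% of all genes called. Per3 was at 0.88 ± 0.29 (adjusted p = 0.051) and Ciart at 0.48 ± 0.18 (adjusted p = 0.090). Per3 in cortex had 23.9 to 102 CPM (median 78.0) in SS + RSD + minocycline mice, a range that holds all 6 SS + RSD values. This comparison and that of SS + RSD with SS mice share the SS + RSD libraries. SS + RSD + minocycline mice set against SS controls gave 0 members by edgeR in cortex (0 at an unadjusted p under 0.05) and 0 in hippocampus (1 at an unadjusted p under 0.05), with 0 by DESeq2 and 0% of all genes called in each region. SS + minocycline against SS mice gave 0 members in each region, with 0 at an unadjusted p under 0.05, 0 by DESeq2 and 0% of all genes. The 4 SS + minocycline mice split by series: Per3 in cortex had 24.03 and 46.2 CPM in the 2 mice of B and 90.9 and 95.6 CPM in the 2 mice of C.

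AA mice gave no call in the corresponding comparisons. Per3 in cortex had 28.3, 37.6 and 46.8 CPM in the 3 AA + RSD mice and 34.97 to 100.05 CPM (median 71.0) in 12 AA mice, and in hippocampus 35.6, 36.8 and 38.7 CPM against 31.5 to 87.8 CPM (median 64.6). All 6 AA + RSD values lay under the AA median of their region. The 3 AA + RSD mice are of series A, whereas 8 of the AA mice in each region are of series B. Control mice of series B had more Per3 than those of series A, at log2 fold changes of 1.00 in cortex and 0.83 in hippocampus. The Per3 ranges of the series A controls are given below. AA + RSD against AA called 0 members by edgeR in cortex (3 at an unadjusted p under 0.05, 0 by DESeq2, 0.853% of all genes) and 0 in hippocampus (1 and 0, 1.19%). In cortex all 10 members had a negative estimate, with a median of −0.22, and Per3 was at −0.88 ± 0.35 (adjusted p = 0.268). Without mouse 9674, 7 of 10 were negative with a median of −0.07, and Per3 was at −0.70, Per2 at −0.58 and Ciart at −0.37 (adjusted p = 0.822 for each). AA + RSD + minocycline against AA + RSD called 0 in cortex (3 at an unadjusted p under 0.05, 2 by DESeq2, Per3 and Ciart, 3.6% of all genes) and 0 in hippocampus (0 and 0, 2.67%). AA + RSD + minocycline against AA called 0 in cortex (2 and 0, 0.0319%) and 0 in hippocampus (0 and 0, 0%). The AA + RSD arm holds 3 mice, 1 of them the mouse whose libraries go against their labels. Without that mouse edgeR called 0 members in each region for every comparison with this arm, those with SS + RSD mice and the interaction of genotype with RSD included, with 0 at an unadjusted p under 0.05.

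Genotype gave no call among the members. The members' estimates for SS against AA controls ran from −0.13 to 0.24 on the log2 scale in cortex and from −0.15 to 0.19 in hippocampus. SS against AA controls called 0 in cortex (0 at an unadjusted p under 0.05, 0 by DESeq2, 0.214% of all genes) and 0 in hippocampus (0 and 0, 0.159%). SS + RSD against AA + RSD called 0 in cortex (1 and 0, 0.493%) and 0 in hippocampus (2 and 0, 0.78%). SS + RSD + minocycline against AA + RSD + minocycline called 0 in cortex (0 and 0, 0.624%) and 0 in hippocampus (1 and 0, 2.74%). For the interaction of genotype with RSD edgeR called 0 in cortex (0 and 0, 0.236%) and 0 in hippocampus (1 and 0, 0.0474%), and for the interaction with RSD + minocycline 0 in each region (0 and 0, 0%).

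Of the other 21 clock genes, none to 3 were called in a comparison of arms. Arntl2, which encodes BMAL2, fell by 1.497 ± 0.35 on the log2 scale in SS + RSD against SS cortex (adjusted p = 0.0405) and rose by 1.46 in cortex (adjusted p = 0.0109) and 1.29 in hippocampus (adjusted p = 0.0303) in SS + RSD + minocycline against SS + RSD. With number series as a term these were −0.41, 0.08 and −0.25, and none was called. In that last comparison Fbxw11, part of the ligase that marks PER proteins for degradation, fell by 0.26 in cortex and Tef, a relative of DBP, fell by 0.20 in hippocampus. Neither call held with number series as a term (Fbxw11 −0.07, Tef −0.24). Fbxw11 was not called when any 1 SS + RSD mouse was left out, and Tef was called only without mouse 9621 and was at −0.13 without mouse 5400. In the AA + RSD hippocampus Rorb rose by 0.76 against AA (adjusted p = 0.0117), and against AA + RSD the AA + RSD + minocycline hippocampus was lower in Rora (−0.81), Rorb (−0.66) and Hlf (−0.49). Without mouse 9674 these 4 were at 0.21, −0.45, −0.12 and −0.17, with adjusted p-values of 0.696 or more.

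Control mice of series B had more Per3 and Per2 RNA than control mice of series A, with no RSD or drug in either. Per3 in cortex had 34.97 to 52.1 CPM (43.5 ± 6.37, n = 6) in series A and 46.6 to 103 CPM (83.1 ± 16.1, n = 14) in series B, a log2 fold change of 1.00 ± 0.15 (fold 1.997, adjusted p = 0.000197). In hippocampus it had 31.5 to 53.4 CPM (40.1 ± 8.43, n = 5) and 40.9 to 87.8 CPM (69.1 ± 14.4, n = 13), at 0.83 ± 0.17 (fold 1.78, adjusted p = 0.000945). Per2 had 26.8 to 42.5 CPM in cortex of series A and 32.7 to 79.96 CPM in series B (0.67 ± 0.16, adjusted p = 0.00254), and 25.0 to 35.9 against 32.7 to 59.8 CPM in hippocampus (0.76 ± 0.13, adjusted p = 0.000227). The series overlapped for each gene.

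In cortex 4 members were called, all higher in series B, where 42.8% of all genes were called. Beside the Per genes these were Nr1d2 (0.23 ± 0.07, adjusted p = 0.0144) and Cry2 (0.14 ± 0.05, adjusted p = 0.0427). In hippocampus 5 were called, all higher, where 44.3% of all genes were called. Beside the Per genes these were Nr1d2 (0.43 ± 0.08), Ciart (0.42 ± 0.12, adjusted p = 0.0099) and Npas2 (0.32 ± 0.12, adjusted p = 0.0382). The members' share is thus near that of all genes. Of the 21 other clock genes 4 were called in each region. Arntl2 was higher in B in both (1.28 and 1.34) and Nfil3, a repressor at D-boxes, lower (−0.33 and −0.35). Per1 was higher in hippocampus (0.54). The series also differed in the share of reads that fell outside annotated genes, with a median of 4.94% in A and 9.69% in B in cortex and 5.05% and 8.29% in hippocampus, and in summed markers of glia. Astrocyte markers had a median of 326 CPM in A and 220.3 CPM in B in cortex and 655 and 484 CPM in hippocampus. Microglial markers had 214 and 164 CPM in cortex and 241 and 187 CPM in hippocampus, and oligodendrocyte markers 4496 and 3335 CPM and 5522 and 3160 CPM. Their part in the difference was not tested. With the share as a term 0 members were called in cortex, where Per3 was at 0.24 and Per2 at 0.14, and 2 in hippocampus, Per2 (0.60, adjusted p = 0.029) and Nr1d2 (0.45, adjusted p = 0.0217), where Per3 was at 0.29 and not called. Control libraries of series B lay on both sides of 7%, and Per3 in cortex had 46.6 and 54.8 CPM in the 2 under it and 68.7 to 103 CPM in the 12 over it.

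**Figure D3:**
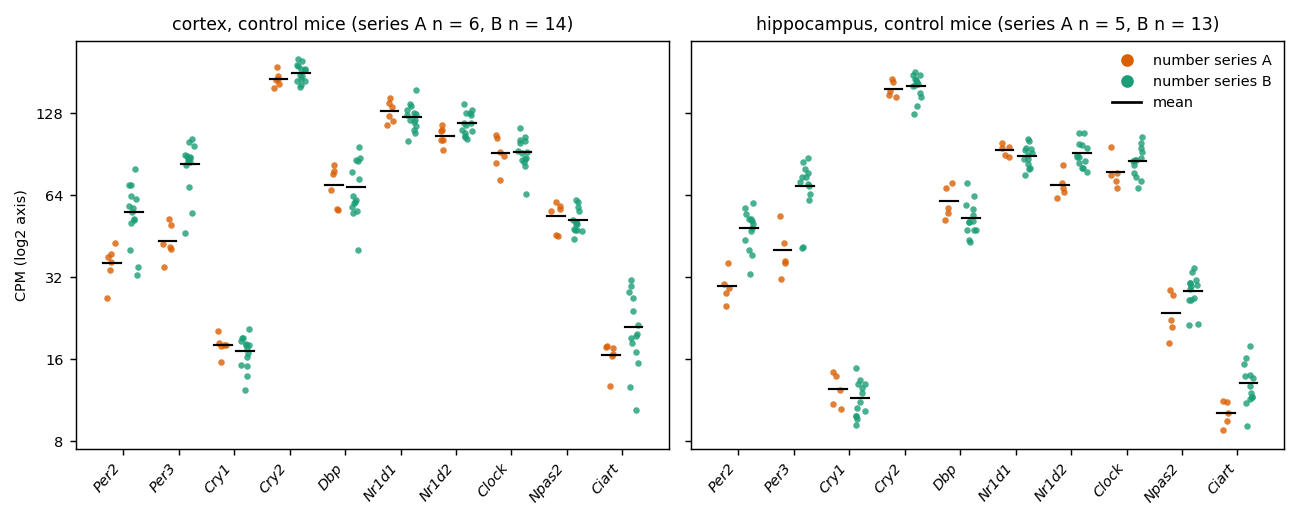
CPM (log2 axis) of the 10 members in control mice, coloured by number series, in cortex and hippocampus, with 1 point a library and a bar at the mean. Per3 in cortex has a mean of 43.5 CPM in series A and 83.1 CPM in series B, and Per2 and Per3 are set apart most in both regions.

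That share separated the libraries of both regions into 2 sets, at 3.68% to 6.09% and 7.34% to 13.9% in cortex and at 3.98% to 6.49% and 7.47% to 24.01% in hippocampus. The value of 7% that divides them was chosen after the data were seen. Per3 in cortex had 23.9 to 54.8 CPM (median 41.1) in the 28 libraries under 7% and 43.8 to 103 CPM (median 88.3) in the 38 over it. In hippocampus it had 26.9 to 64.6 CPM (median 35.1, 28 libraries) and 26.8 to 87.8 CPM (median 69.6, 36 libraries). Per2 had medians of 32.9 and 54.3 CPM in cortex and 29.2 and 49.8 CPM in hippocampus. The split stood within an arm and a series as well: in AA + RSD + minocycline mice of series B, Per3 in cortex had 36.6 to 48.2 CPM in 6 libraries under 7% and 69.1 to 94.4 CPM in 9 over it. In SS + RSD + minocycline mice of series B it had 23.9 to 44.97 CPM in 4 and 71.8 to 102 CPM in 8, and these sets did not overlap. In hippocampus the SS + RSD + minocycline sets stood apart (27.3 to 37.5 and 55.8 to 82.6 CPM), whereas the AA + RSD + minocycline sets overlapped (26.9 to 32.8 and 26.8 to 74.7 CPM). All 9 hippocampus libraries of RSD mice without minocycline, and in cortex 5 of the 6 SS + RSD and all 3 AA + RSD libraries, were under 7%, as were all control libraries of series A. Among other clock genes Arntl2 had medians of 5.99 and 17.7 CPM in cortex and Per1 83.4 and 118 CPM, whereas Arntl (Bmal1) had 35.1 and 36.9 CPM. Of all 24165 genes tested, 52.9% in cortex and 50.7% in hippocampus correlated with this share (Pearson's r, arm means taken away, adjusted p under 0.05). Cry2, Nr1d1, Npas2 and Ciart were not called in cortex, nor Cry2, Dbp, Nr1d2 and Clock in hippocampus. The other members were called, with Cry1 in both regions and Dbp in cortex lower at a higher share. The values of the 2 sets are descriptions of sets defined from the libraries, with no test.

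Whether a mouse with a high level in cortex also had a high level in hippocampus was asked over the mice with both libraries in the same set. The arm means within that set were taken away first. Over the 33 mice with both libraries over 7%, 3 of 10 members had a positive correlation with an adjusted p under 0.05, and 16% of all genes did. Cry1 had Pearson's r = 0.68 (permutation p = 5e-05, Spearman's rho 0.72 with permutation p = 3e-05, 0.69 without the 2 mice farthest from the median cortex level, adjusted p = 0.0007). Ciart had r = 0.63 (permutation p = 0.00062, rho 0.60 with p = 0.00174, 0.45 without the 2 mice) and Dbp r = 0.57 (permutation p = 0.0013, rho 0.49 with p = 0.00584, 0.46 without the 2 mice). Nr1d2 was at r = 0.47 (adjusted p = 0.0571), Per3 at 0.47 and Per2 at 0.46, which dropped to 0.32 and 0.23 without the 2 mice. Nr1d1 (0.21), Cry2 (0.12), Clock (0.12) and Npas2 (−0.02) were lower, beside a median of 0.196 over all genes.

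Of the 25 mice with both libraries under 7%, 1 was alone in its arm and was left out. Over the other 24, 0 members had a positive correlation with an adjusted p under 0.05, where 8.86% of all genes did. Per2 was at r = 0.30, Per3 at 0.26 and Dbp at 0.25. Npas2 was negative at r = −0.62 (permutation p = 0.0091, rho −0.57 with p = 0.00835, −0.40 without the 2 mice, adjusted p = 0.0459), and without mouse 9674 it was at −0.43 and not called. Over all mice, with the sets pooled, 6 members were called positive and so were 53.9% of all genes. No pooled r between the regions is given, because the mice form 2 clusters. In each set 10 relations were computed, with p-values adjusted over all genes.

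**Figure D4:**
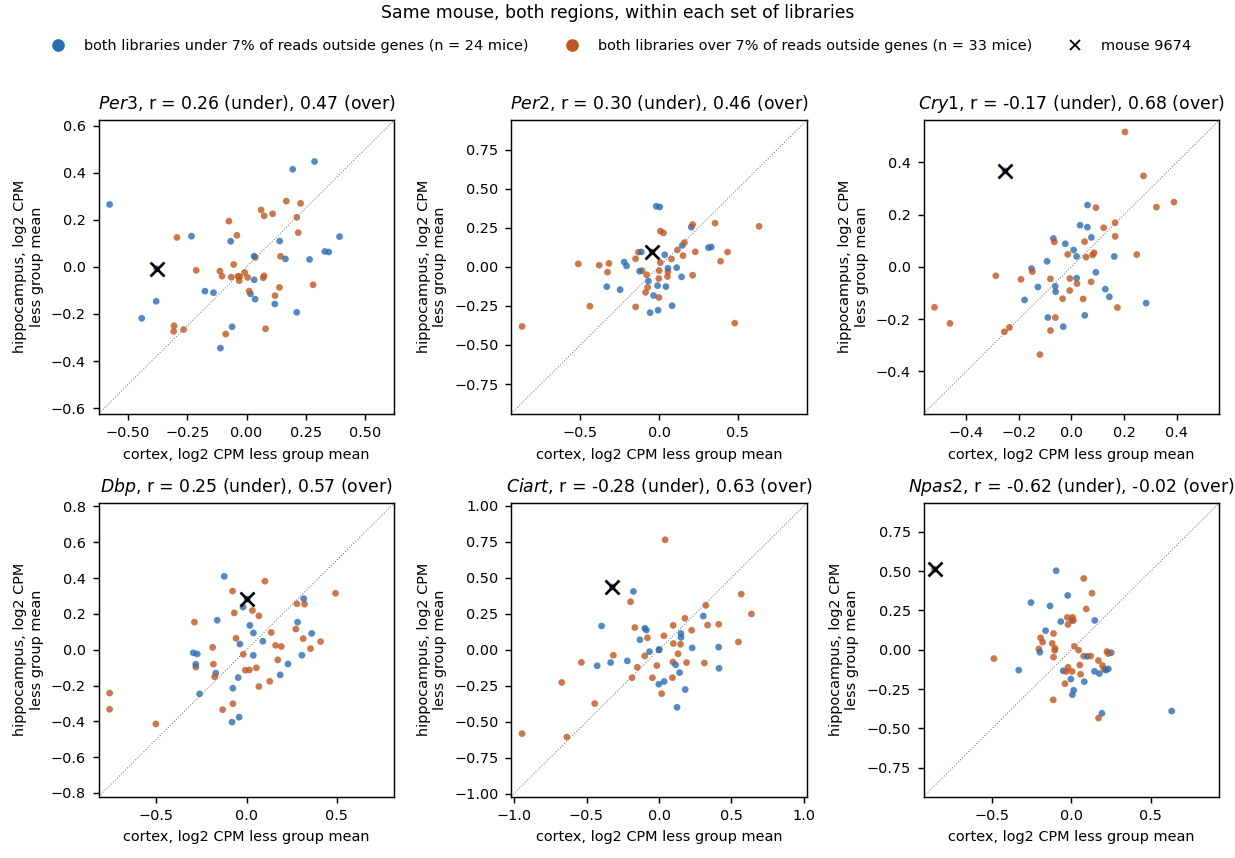
Level in hippocampus against level in cortex of the same mouse for 6 members, 1 point a mouse. Values are log2 CPM less the mean of the mouse's arm within its set of libraries. Colours mark the 2 sets, and a cross marks mouse 9674. In the set over 7% Cry1 has r = 0.68 and Npas2 −0.02.

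Members were also compared with each other within a region, over 45 pairs, and again within each set of libraries. The pairs given here were chosen after their values were seen, and their points share library, depth and base composition. A library alone in its arm within a set was left out, 1 of 28 and 2 of 38 in cortex and 1 of 36 in hippocampus. Nr1d2 and Clock, of opposite arms of the loop, went together in both regions and both sets. Their r was 0.68 (permutation p = 6e-05, rho 0.76, 0.84 without the 2 farthest mice) in 27 cortex libraries under 7% and 0.66 (permutation p = 1e-05, the smallest that the permutations can give, rho 0.63, 0.64) in 36 over it. In hippocampus it was 0.64 (permutation p = 0.0013, rho 0.58, 0.59) in 28 libraries and 0.72 (permutation p = 1e-05, rho 0.75, 0.81) in 35. Of all genes, 1.95% to 2.86% had an r with Nr1d2 at least as high. Dbp and Ciart also went together: r was 0.71 (permutation p = 0.00023, rho 0.69, 0.66) and 0.73 (permutation p = 3e-05, rho 0.62, 0.59) in cortex, and 0.56 (adjusted p = 0.0526) and 0.54 (adjusted p = 0.0338) in hippocampus. Of all genes, 2.73% and 0.029% had an r with Dbp at least as high in cortex, and 6.94% and 2.75% in hippocampus. Mouse 9674 is among the hippocampus libraries under 7%. Without it the pair over all hippocampus libraries was not called.

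Dbp and Clock went in opposite directions. Their r was −0.71 (permutation p = 0.0023, rho −0.60, −0.41 without the 2 farthest mice) under 7% and −0.61 (permutation p = 0.00068, rho −0.51, −0.39) over it in cortex, and −0.48 (adjusted p = 0.114) and −0.46 (adjusted p = 0.067) in hippocampus. Of all genes, 3.02% and 0.526% had an r with Dbp at least as low in cortex, and 10.2% and 6.22% in hippocampus. Per2 and Per3 were most alike in hippocampus, with r = 0.86 over 7% (permutation p = 2e-05, rho 0.61, 0.62) and 0.69 under it (permutation p = 0.0037, rho 0.68, 0.49). In cortex the pair was at 0.53 over 7% (permutation p = 0.0165, rho 0.40), which dropped to 0.21 without the 2 farthest mice, and at 0.36 under it (permutation p = 0.075). An r with Per2 at least as high was held by 0.0248% of all genes over and 1.24% under 7% in hippocampus. In cortex the shares were 1.76% and 3.36%.

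**Figure D5:**
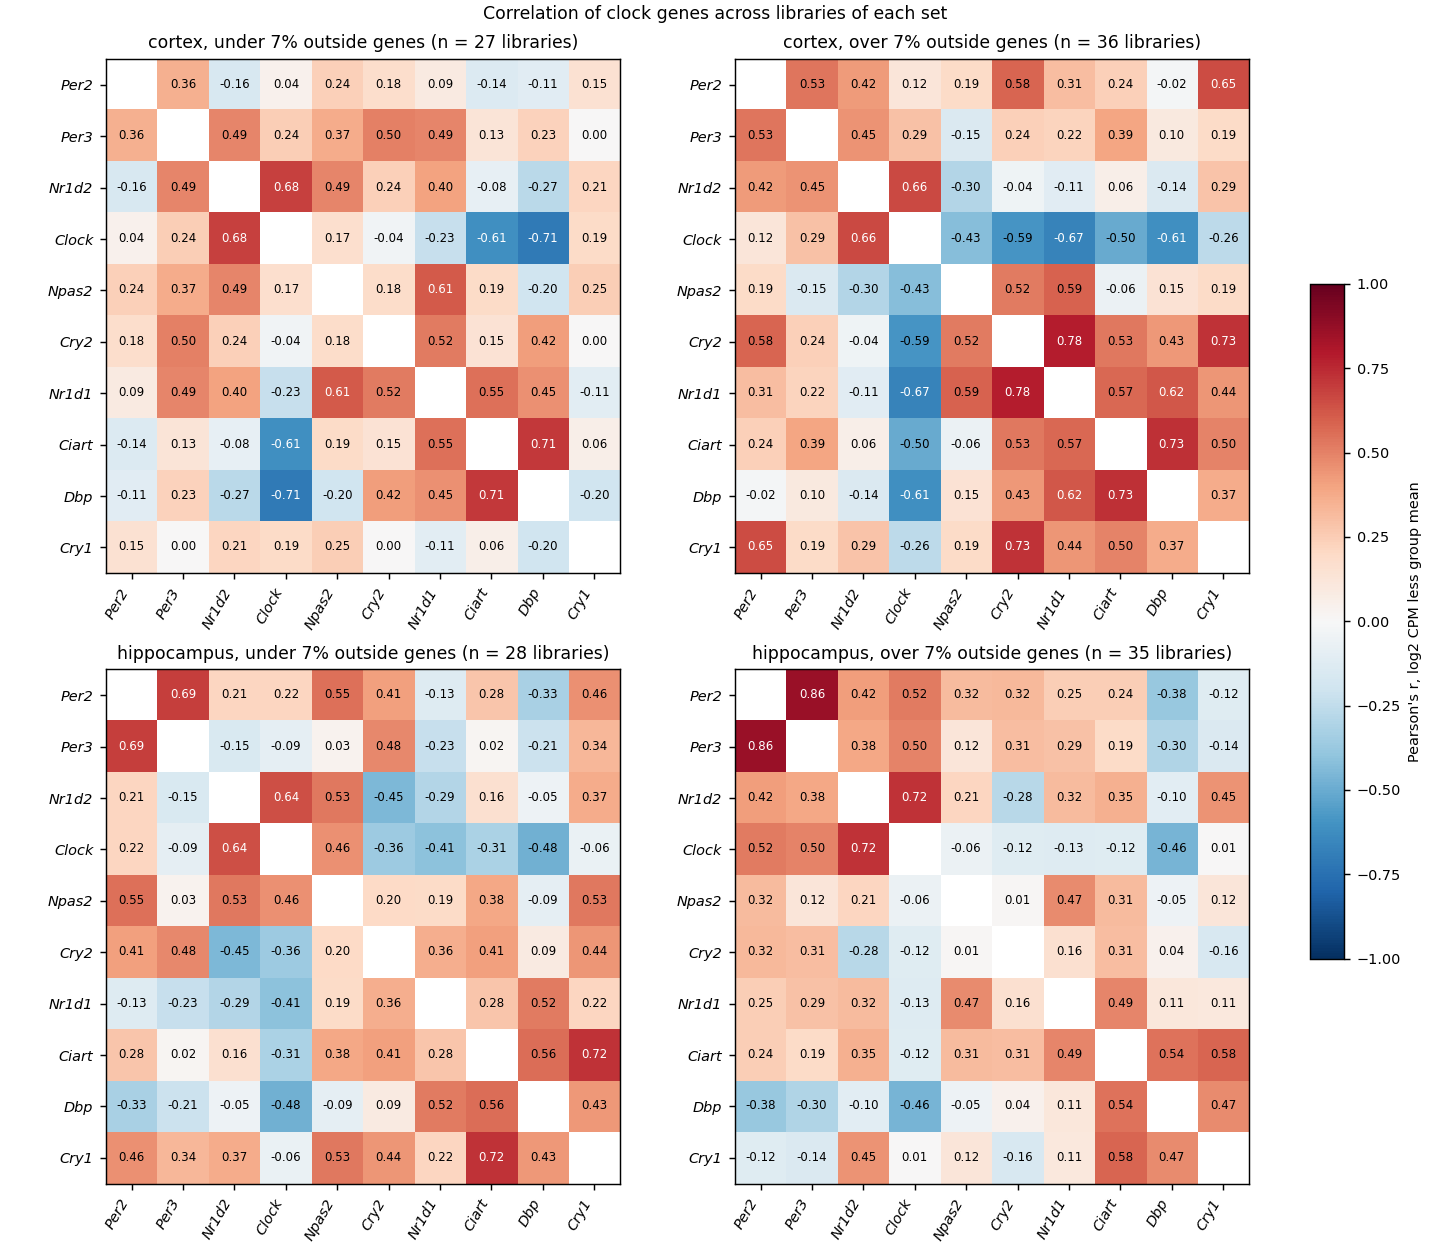
Pearson's r for each pair of the 10 members, in cortex and hippocampus and in the libraries under and over 7%. Values are log2 CPM less the arm mean within the set. Nr1d2 and Clock are at 0.64 to 0.72 in the 4 panels, and Dbp and Clock at −0.71 to −0.46.

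Across the 13072 genes whose log2 CPM averaged 1 or more in each region, the genes most like Dbp over all libraries, by the mean of the r in the 2 regions, were Srm (0.76), H1fx (0.75), Chchd10 (0.75), Sncb (0.75) and Irf2bp1 (0.75). At the other end were Pign (−0.70), Zmym6 (−0.69), Tmtc3 (−0.69), Mysm1 (−0.69) and Mtmr1 (−0.68). The 5 genes most like Npas2 were Cit (0.81), Cobl (0.80), R3hdm2 (0.79), Cep170b (0.77) and Etl4 (0.76). These values are descriptions over libraries that share depth and share of reads outside genes, with no test. They pool the 2 sets of libraries and include mouse 9674, which held the lowest cortex and the highest hippocampus value of Npas2. No value within a set or without that mouse is given here.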

How the data were processed

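RNA of cerebral cortex and hippocampus was sequenced by the authors from directional poly(A) libraries with single-end reads, which they aligned with STAR to GRCm39 and counted per gene on a GENCODE annotation, per the labels. The values used are the deposited counts of reads per gene, not normalized, with 1 table a region. The STAR version, the strand setting and the GENCODE release are not given in the sources used here. The 4 summary lines without a gene stayed out of library sizes; in cortex and hippocampus their medians were 12.4% and 13.3% of reads unmapped, 4.98% and 4.83% mapped to several places, 8.25% and 7.59% outside annotated genes and 1.25% and 1.22% ambiguous. As for columns, 3 were not used, 1 library whose title and tissue labels disagree was put in no group, and 4 libraries with identical counts were left out. The 5111 genes without a symbol entered the fits under their identifiers.

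Counts were filtered (filterByExpr, minimum count 10, minimum total 15), scaled by TMM and tested with the quasi-likelihood test of edgeR 4.0.16 in R 4.3.3, within genotype for each region, over all arms for genotype, and over both regions for hippocampus against cortex, with Benjamini-Hochberg adjustment over all genes and a threshold of 0.05. The fits gave back known fold changes on simulated data. Those libraries were drawn independently and differed only by depth and the groups compared. They could not test the effect of series that follow the arms, of the share outside genes or of the pairing. Correlations used log2 CPM with a prior count of 2 less the arm mean, in Python 3.11.15 with NumPy 2.4.6, SciPy 1.17.1 and pandas 2.3.3, and 100000 permutations. Within a set of libraries the arm mean was that of the set. All tests are two-sided. Mouse numbers in the labels mark the animal, so the 2 regions of a number come from the same mouse and are paired by design. The arms share no numbers. The main fits over both regions did not use the pairing, whereas the replicate block did. Alternatives were DESeq2 1.42.0, RLE size factors, no filter, fits on the compared groups, number series or the share outside genes as a term, single series, the replicate block and leaving out replicates.

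The members and lists were chosen with earlier results of these data known. Another gene of the clock list and another cortex marker are not reported here, and counts and sums leave them out. Values and statistics are given for members called in at least 1 region, and the others by counts and ranges; further genes were added where a result turned on them. Genes most like Dbp and Npas2 were taken by highest and lowest mean r. Counting error is small at this depth, but labels do not say how tissue and libraries were batched.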

Additional observations from a re-analysis of the deposited data

Results flagged for a closer look

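In each arm of 4 to 10 mice the most extreme library was compared with the others by Dixon's ratio, 60 groups of values in all, and 4 stood apart, where chance gives about 1 in 20. Clock in SS cortex was lowest in mouse 9824, at 64.8 CPM, where the other 7 mice had 82.0 to 99.6 CPM. Cry1 in SS cortex was lowest in mouse 5785, at 12.3 CPM, where the others had 17.6 to 20.3 CPM. Cry2 in SS + RSD cortex was lowest in mouse 9621, at 145 CPM, beside 165 to 172 CPM in the others. Nr1d1 in SS + RSD hippocampus was highest in mouse 5354, at 112 CPM, beside 78.6 to 87.6 CPM. Each is 1 gene in 1 library, and none is a member called between arms.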

How the results depend on the processing

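Of the counts and pair correlations recomputed under the alternatives, 259 kept their side of the threshold or stayed within 1.5 times, 29 counts moved and 5 correlations were no longer called. Single values of called members were less stable: 133 stayed called, 52 were no longer called and 7 changed sign. The cause was not tested where none is named. Shares of all genes called between arms, series or regions are those of the main edgeR fits. For DESeq2 and the other alternatives they are not given, so counts of members there stand without that background. With the replicate block, which pairs the 2 regions of a mouse, 10 members were called between regions in place of 9, Per2 being added, and 0 for either interaction with region. The pairing changed no other call of a member. For SS + RSD against SS in cortex, 0 members became 1 with DESeq2 (Per3) and 2 in a fit of the compared groups alone (Per2 and Per3), and in hippocampus 0 became 2 in the latter. For SS + RSD + minocycline against SS + RSD, the 0 in cortex became 1 with RLE size factors, 1 with DESeq2 (Per3 in both) and 2 in a fit of the compared groups alone (Per3 and Ciart), and ran from 0 to 1 when a replicate was left out, with Per3 called without SS + RSD mouse 5391. In hippocampus the 1 member (Ciart) became 0 with no filter, and likewise with a term for number series or for the share outside genes, 2 with DESeq2, and 0 to 1 when a replicate was left out. SS + minocycline against SS in cortex gave 3 members in series B alone (Per2 −1.22, Per3 −1.31 and Dbp 0.73, from 2 treated mice) in place of 0. AA + RSD + minocycline against AA + RSD gave 2 with DESeq2 in cortex, and in hippocampus 2 with number series as a term (Nr1d2 and Npas2) and 1 with the share as a term (Nr1d1), in place of 0. For control mice of series B against A, the 4 in cortex became 1 in AA mice alone and 0 with the share as a term, and the 5 in hippocampus 3 and 2. The 6 members with a positive correlation between regions over all mice became 0 in series A with or without mouse 9674, 3 in the set over 7%, 1 in the set under 7% (Npas2, negative) and 0 there without mouse 9674. The correlations between regions of 3 members turned negative. Cry1 was at −0.36 in series A and −0.17 under 7%, Nr1d2 at −0.19 and −0.091, and Ciart at −0.32 and −0.28, with −0.11 under 7% without mouse 9674. Among pairs, Per2 with Per3 in cortex was at 0.36 under 7%, Dbp with Clock in hippocampus at −0.48 under and −0.46 over 7%, and Dbp with Ciart in hippocampus at 0.28 without mouse 9674 and 0.56 under 7%. The sets hold fewer mice. Arms of 3 to 6 mice, and series that follow the arms, limit these comparisons, and the effect of depth was not tested.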
